A study of Danio rerio with 6 samples.

Results

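The genes described here are those of the proteasome, the barrel-shaped protease that degrades proteins tagged with ubiquitin. They were taken by name: every row of the count table whose zebrafish symbol began with psma, psmb, psmc, psmd, psme or psmg, whatever its counts. This gave 58 of the 32520 genes in the table. They carry 54 distinct symbols, since 4 symbols each stand on 2 Ensembl identifiers. By role they were 10 genes of the alpha ring, 7 constitutive and 7 immune or other alternative subunits of the beta ring, 7 ATPases and 5 other subunits of the base of the cap, 9 subunits of its lid, 6 assembly chaperones and 5 activators. The last 2, PSMC3IP and PSME3IP1, are named after a subunit they bind and are not subunits themselves. Symbols are written as the lookup table gives them, which is often in the capitals of the human gene.

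The series asked how ZMEL1 cells, a line grown out of a zebrafish melanoma, respond to TGFB1. All cells were starved of serum for 2 h. For the next 2 h, 3 samples received 10 ng/mL of recombinant human TGFB1 and 3 received the vehicle, 4 mM HCl with 1 mg/mL BSA. The labels describe the triplicate as technical, so spread between libraries may be smaller than between separate cultures. The 6 count columns, headed HN69 to HN74, matched the labels of no sample. They were read jointly as ZMEL1 libraries because every sample of the series is ZMEL1, and it cannot be said which of them received TGFB1. No treatment effect is given, and the spread between columns mixes treatment and replicate differences.

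The proteasome consists of a core particle of stacked rings and a regulatory cap at its ends. The outer rings of the core are built from alpha subunits and form the gate, and the inner rings from beta subunits, of which PSMB5, PSMB6 and PSMB7 carry the proteolytic sites. In vertebrates, interferon induces PSMB8, PSMB9 and PSMB10, which replace PSMB5, PSMB6 and PSMB7 in the immunoproteasome and alter the peptides made for MHC class I. The cap has a base with a ring of ATPases that unfold substrates, and a lid that removes ubiquitin.

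The 6 libraries held 12319428 to 18582009 counted reads, 90694930 in all. The 325 genes with the most reads (the top 1%) took 68.2% to 72.5% of them. Levels are given as CPM, the counts of a gene per 1000000 counts of its column. Longer transcripts give more reads and no transcript lengths were used, so CPM values of different genes are shares of reads and are not ranked as amounts of RNA. Which library is highest or lowest is stated below for CPM of the column total. With TMM scaling (edgeR's trimmed mean of M values, which corrects library totals for genes that take many reads) the order changed for many genes: 22 of the 49 well covered proteasome genes were highest in HN69 in CPM and 7 with TMM scaling, and 30 and 7 were lowest in HN74. Of the melanocyte and melanoma markers, 8 of 13 were matched by name. SOX10, a transcription factor of the neural crest lineage, had 333 to 411 CPM, crestin, a neural crest transcript, 5487 to 7495 CPM and TYR, the enzyme of melanin synthesis, 19.6 to 21.9 CPM. DCT had 9 to 27 reads and SLC45A2 0 to 2 reads per library. The 8 matched leukocyte markers summed to 1.07 to 2.35 CPM, with lyz and RAG1 at 0 in every library.

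Nearly all constitutive proteasome genes were well covered. At least 50 reads in every library were found for 49 of the 58 genes (84.5%), against 27.9% of all genes in the table. The other 9 were the 7 immune or alternative beta subunits, psma6l and PSMC3IP. Together the 58 genes took 0.308% of the reads in HN74 to 0.357% in HN69.

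**Figure D1:**
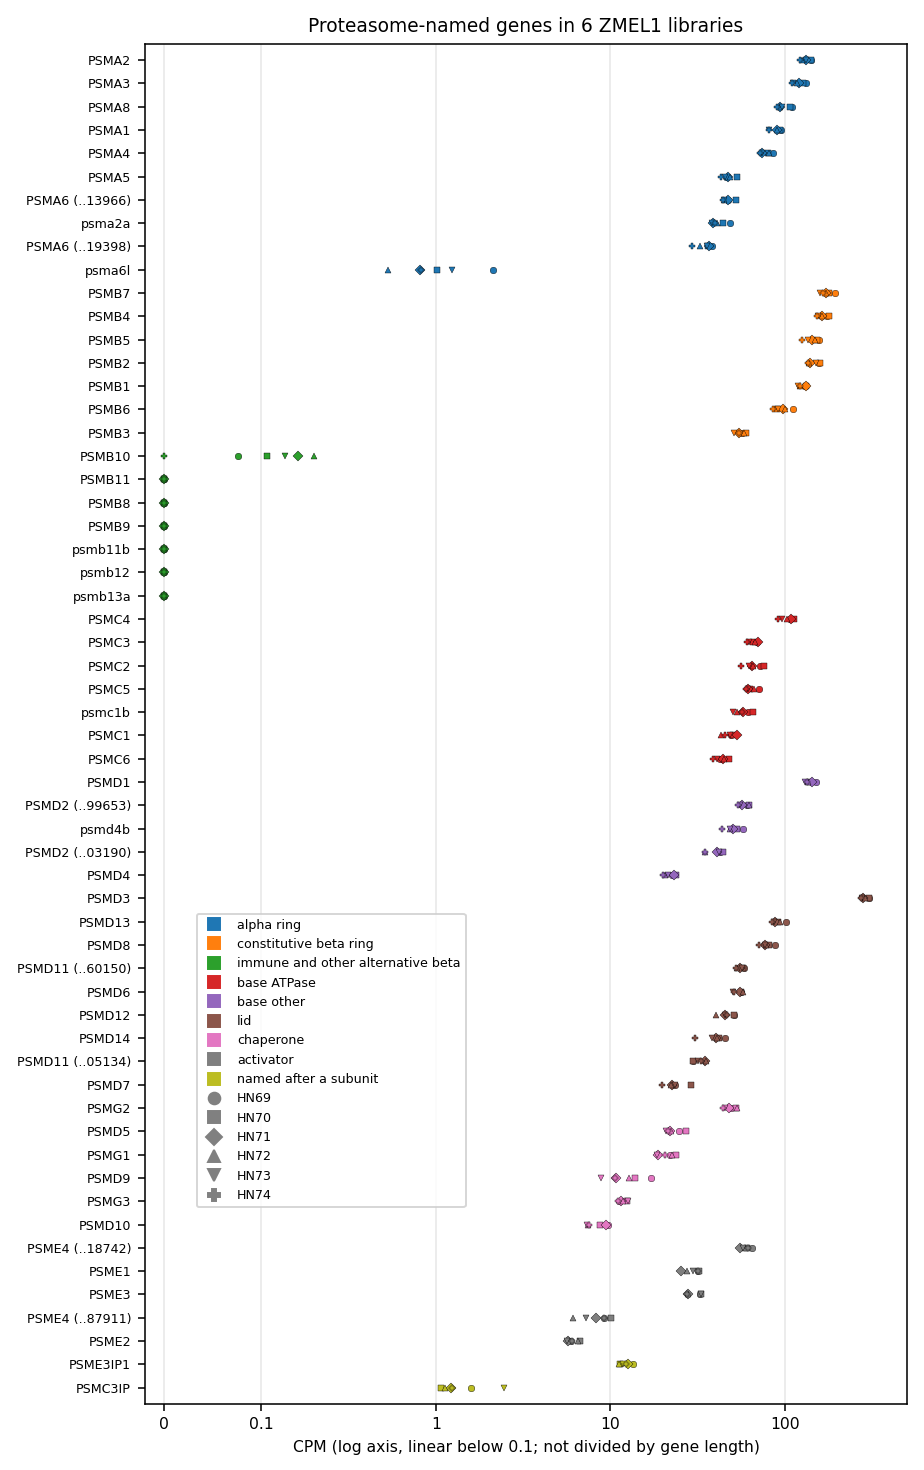
CPM of each of the 58 genes (rows, grouped by role and sorted by median) in the 6 ZMEL1 libraries (symbols). The axis is logarithmic above 0.1 and linear below; values are not divided by gene length. Alpha ring, constitutive beta, base and lid genes lie between 19.7 and 304 CPM apart from psma6l, while 6 of the 7 alternative beta subunits lie at 0.

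In the alpha ring, 9 of 10 genes had at least 50 reads in every library. PSMA2 (ENSDARG00000035679), a subunit of the ring that gates the core, had 140, 141, 132, 125, 131 and 121 CPM in HN69 to HN74. PSMA3 had 132, 127, 120, 117, 111 and 109 CPM. Both varied little, and both were lowest in HN74 in CPM of the column total. With TMM scaling the lowest library was HN72 for PSMA2 and HN73 for PSMA3. The lower of the 2 genes named PSMA6, ENSDARG00000019398, had 38.3, 36.0, 36.9, 32.5, 35.9 and 29.2 CPM. The gene named PSMA8 had 89.4 to 109 CPM. In mammals PSMA8 is a testis form of the subunit PSMA7; RefSeq lists psma7 as a synonym of zebrafish psma8, and no gene of the table is named psma7. The exception was psma6l (ENSDARG00000043899), a relative of PSMA6, with 28, 19, 10, 8, 18 and 14 reads. HN69 held the most of them, at 2.12 CPM, and HN72 the fewest, at 0.534 CPM.

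All 7 constitutive beta subunits were well covered, with 838.6 to 979 CPM in sum. PSMB7 (ENSDARG00000037962), the trypsin-like site, had 194, 177, 171, 172, 159 and 164 CPM in HN69 to HN74. PSMB5 (ENSDARG00000075445), the chymotrypsin-like site, had 155, 152, 142, 149, 136 and 126 CPM. PSMB6 (ENSDARG00000002240), the caspase-like site, had 111, 89.5, 97.1, 100.1, 91.1 and 85.6 CPM. Each of the 3 catalytic subunits was highest in HN69, and all stayed at 85.6 CPM or more in every library. With TMM scaling only PSMB7 was highest in HN69, and PSMB5 and PSMB6 were highest in HN72. Among the structural subunits, PSMB4 had 152 to 178 CPM and PSMB3 had 50.9 to 59.4 CPM.

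The immune counterparts of these subunits were at or near 0. PSMB5 had 12992 reads over the 6 libraries, and PSMB8 (ENSDARG00000001303) had 0, which allows PSMB8 a share of up to 0.0231% of the reads of the pair. PSMB6 had 8606 reads and PSMB9 (ENSDARG00000000656) had 0, which allows a share of up to 0.0349%. Both limits use 3 reads. The exact Clopper-Pearson 95% intervals end higher, at 0.0284% for PSMB8 and 0.0429% for PSMB9. PSMB7 had 15652 reads and PSMB10 (ENSDARG00000043781) had 10. The PSMB10 reads were 1, 2, 2, 3, 2 and 0 in HN69 to HN74. They made up 0.0638% of the reads of the pair, with an exact Clopper-Pearson 95% interval of 0.0306% to 0.117%. In single libraries, a count of 0 allows up to 0.161 to 0.244 CPM. These limits cover counting error only. They apply to reads assigned to the annotated gene, whatever the cell transcribes from other copies.

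The other alternative beta subunits also had no read in any library. They were PSMB11 (ENSDARG00000108530) and psmb11b (ENSDARG00000068086), whose mammalian relative belongs to the thymus proteasome, psmb12 (ENSDARG00000031885) and psmb13a (ENSDARG00000001656). In all, 6 of the 58 proteasome genes (10.3%) were at 0 in all libraries, against 24.6% of all genes in the table. All 6 belonged to the group of 7 alternative beta subunits.

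Of these 6 genes, 4 lie side by side. In RefSeq's gene order for the assembly GRCz12tu, psmb8a, psmb13a, psmb12, psmb9a and then tap2a follow each other on chromosome 19, next to MHC class I genes. The table's PSMB8 and PSMB9 were matched to psmb8a and psmb9a through RefSeq's synonyms. The gene tap2a, a subunit of the transporter that carries peptides to MHC class I, was also at 0 in all 6 libraries, so 5 neighbouring genes had no read. On one side the next gene was mhc1uba, an MHC class I gene, with 2638, 3993, 2460, 2640, 2783 and 3129 reads in HN69 to HN74. On the other side it was brd2a, a bromodomain gene matched through its synonym brd2, with 2347, 3511, 2066, 2678, 2205 and 2604 reads. Of the 17 genes of this stretch that were matched, the other 12 all had reads in every library, down to 2 to 10 reads for hsd17b8. Zebrafish haplotypes of this region are known to differ in which proteasome and transporter genes they carry, and the table counts only the genes of the reference annotation. Whether ZMEL1 carries these genes, or diverged copies of them, was not tested. In RefSeq's order psmb11a lies next to psmb5. PSMB11, read here as psmb11a, was at 0, and PSMB5 had 1752 to 2830 reads per library.

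**Figure D2:**
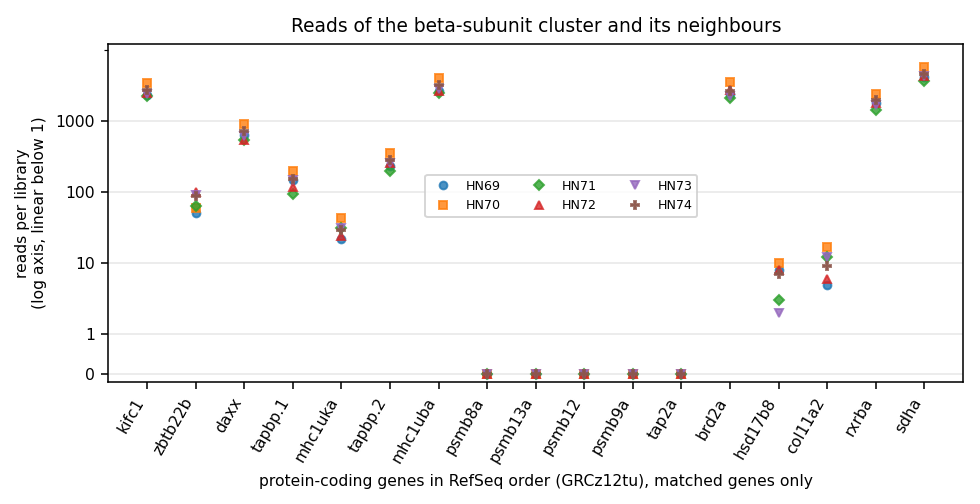
Reads per library (y axis, logarithmic above 1 and linear below) for 17 protein-coding genes in RefSeq order around psmb8a on chromosome 19; 3 genes of the stretch without a match are left out. The 5 genes from psmb8a to tap2a lie at 0 in all 6 libraries, between mhc1uba (2460 to 3993 reads) and brd2a (2066 to 3511 reads).

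Other genes of MHC class I presentation were present. The light chain gene b2m had 348 to 418 CPM, the transporter subunit TAP1 5.195 to 9.16 CPM, the tapasin genes tapbp.1 and tapbp.2 7.63 to 11.3 CPM and 16.1 to 19.2 CPM, and nlrc5, an activator of MHC class I genes in mammals, 23.3 to 27.3 CPM. The interferon regulatory factor genes irf1a and irf1b had 5 to 38 and 11 to 31 reads per library.

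In the base of the cap all 12 genes passed 50 reads in every library. PSMC4, an ATPase, had 107, 112, 109, 102, 96.3 and 90.5 CPM in HN69 to HN74. PSMC3 had 60.5 to 69.7 CPM, PSMC1 43.0 to 52.8 CPM and PSMC6 38.6 to 47.6 CPM. The 7 ATPase genes together had 407 to 479 CPM. PSMD1, a scaffold subunit, had 150, 139, 142, 135, 130 and 134 CPM. PSMD4, a receptor for ubiquitin chains, had 22.6, 23.6, 23.1, 20.4, 21.3 and 20.1 CPM. For both, HN73 and HN74 were among the 3 lowest libraries in CPM of the column total. With TMM scaling this did not hold: PSMD1 was highest in HN74, at 144.4, and PSMD4 was lowest in HN69, at 20.83.

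In the lid all 9 genes passed 50 reads in every library. PSMD3, a structural subunit, took the most reads of any of the 58 genes, with 304, 303, 281, 288, 276 and 271 CPM in HN69 to HN74. PSMD13 had 84.3 to 101 CPM. PSMD14, the enzyme that removes ubiquitin from substrates, had 45.0, 41.7, 40.2, 40.8, 38.2 and 30.6 CPM. HN74 stood below the other 5 libraries, also with TMM scaling (33.1 against 38.9 to 42.1). PSMD7, the partner of PSMD14 in the lid, had 23.6, 28.8, 22.6, 22.1, 23.4 and 19.7 CPM, with HN70 above the rest and HN74 below. With TMM scaling HN70 was still highest for PSMD7, at 26.85, but HN74, at 21.34, lay close to HN69, at 21.74.

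As sums of CPM, core over cap stayed within a narrow range across libraries. The 17 core genes (alpha and constitutive beta) summed to 1467 to 1722 CPM and the 21 cap genes to 1353 to 1559 CPM. Core over cap was 1.104, 1.091, 1.074, 1.085, 1.083 and 1.084 in HN69 to HN74, a span of 1.03-fold between the highest and the lowest. The cap sum lacks ADRM1 (58.2 to 64.8 CPM) and SEM1 (64.2 to 76.8 CPM), cap subunits outside the name rule. Adding them would lower core over cap, and the ratio was not computed with them, so an excess of core reads cannot be read from it. Gene length weights the genes within each sum, and no value per length was computed, so both the size of the ratio and its span are those of unweighted reads. The median core gene had 85.6 to 109 CPM and the median cap gene 50.3 to 58.5 CPM, a ratio of 1.62 to 1.87 that spanned 1.155-fold. Constitutive beta over alpha ring was 1.29 to 1.34 as sums and 2.12 to 2.32 as medians of genes. Base over lid was 1.05 to 1.11 as sums and 1.03 to 1.12 as medians. The design gives no test of these ratios.

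Zebrafish carry pairs for several subunits, and both copies were read in each of the 7 pairs described here. PSMB11 and psmb11b, with no read for either copy, were left out of these pairs. The counter's treatment of reads that match both copies is not given in the sources used here, so these splits are uncertain where copies are near-identical. The intervals given cover counting error only, and the libraries named were picked as the lowest and highest of the 6, so they describe the range and are no test of a difference between libraries. PSMC1 took 43.6% of the reads of PSMC1 and psmc1b in HN70 (exact 95% interval 41.5% to 45.8%) and 49.0% in HN73 (46.3% to 51.6%), the lowest and highest of the 6 libraries. For the 2 PSMD2 genes, ENSDARG00000099653 took 56.8% in HN73 (54.2% to 59.4%) and 64.0% in HN72 (61.4% to 66.4%). RefSeq's GRCz12tu list has 1 gene named psmd2, while 2 identifiers of the table bear the name. For the 2 PSMD11 genes, ENSDARG00000005134 took 33.6% in HN69 (30.8% to 36.4%) and 39.8% in HN72 (37.1% to 42.5%). In the PSMA6 pair ENSDARG00000013966 took 55.1% to 60.1%, PSMA2 took 74.3% to 77.4% of PSMA2 and psma2a, and PSMD4 took 28.3% to 31.5% of PSMD4 and psmd4b.

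All 6 assembly chaperones passed 50 reads in every library. PSMG2, which pairs with PSMG1 to assemble the alpha ring, had 48.8, 52.1, 47.7, 52.7, 45.5 and 44.0 CPM in HN69 to HN74. PSMG3 had 11.1 to 12.6 CPM. Chaperones of the base were PSMD5, with 20.8 to 27.0 CPM, PSMD10 (gankyrin), with 7.34 to 9.69 CPM, and PSMD9. PSMD9 (ENSDARG00000006300) varied most of all 49 covered genes, with 17.0, 13.8, 10.8, 12.8, 8.78 and 10.6 CPM, a range of 1.93-fold. HN69 was highest and HN73 lowest. After TMM scaling the same libraries were highest and lowest, and the range was 1.72-fold.

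The activators bind the core in place of the cap. PSME1, which forms a ring with PSME2 and is interferon-induced in mammals, had 31.8, 32.3, 25.4, 27.6, 29.6 and 31.5 CPM in HN69 to HN74. PSME2 had 5.91, 6.67, 5.68, 6.54, 5.63 and 5.99 CPM, from 70 to 124 reads per library. Both partners of this activator were read in every library, while PSMB8 and PSMB9 had no read and PSMB10 had 0 to 3 per library. The reason for this difference was not tested. PSME3, the nuclear activator, had 27.3 to 33.1 CPM. Of the 2 genes named PSME4, ENSDARG00000018742 had 54.9 to 64.4 CPM, and ENSDARG00000087911 had 9.16, 10.1, 8.28, 6.14, 7.20 and 9.16 CPM. The first took 85.8% of the reads of the pair in HN70 (exact 95% interval 83.8% to 87.7%) and 90.6% in HN72 (88.6% to 92.3%), the lowest and highest of the 6 libraries, with intervals for counting error only.

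The 2 genes named after a subunit were read at lower counts. PSME3IP1 had 156 to 212 reads per library, and PSMC3IP, a partner of meiotic recombination, had 15 to 36.

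Across libraries most proteasome genes had their highest CPM in HN69 or HN70 and their lowest in HN74. Of the 49 covered genes, 44.9% were highest in HN69 and 40.8% in HN70, against 36.0% and 36.5% of all 9063 covered genes of the table. The lowest library was HN74 for 61.2% of the proteasome genes, against 40.7% of all covered genes, and HN71 for 4.08%, against 17.7%. The size of the shift was alike in both sets in HN69 and HN74, and less alike in HN72 and HN73. In HN74 the median proteasome gene stood at 0.931 of its own median over the libraries, and the median covered gene at 0.933. In HN69 these values were 1.067 and 1.066, in HN72 0.999 and 0.985, and in HN73 0.958 and 0.977. With TMM scaling 7 of the 49 genes were lowest in HN74, 13 in HN69 and 8 in HN71, and 18 were highest in HN72. These TMM-scaled counts were made for the proteasome genes only. Whether other genes of the table follow the same order with TMM scaling was not tested. The 58 genes summed to 3574, 3515, 3301, 3292, 3181 and 3083 CPM in HN69 to HN74, a span of 1.16-fold. With TMM scaling, whose factors ran from 0.924 in HN74 to 1.08 in HN69, the same sums were 3299, 3278, 3317, 3396, 3295 and 3335, a span of 1.04-fold. On the log2 scale, CPM of the column total minus TMM-scaled CPM was 0.12 in HN69 and -0.11 in HN74, the same for every gene.

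**Figure D3:**
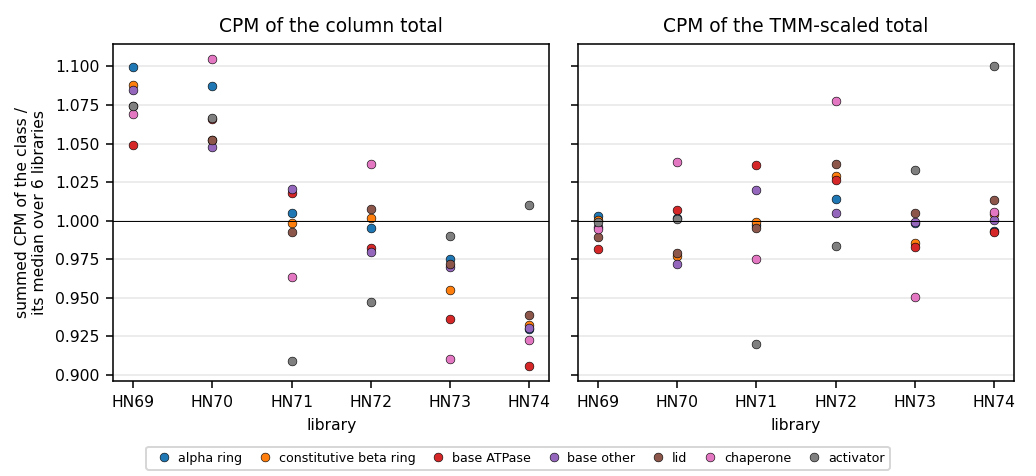
Summed CPM of each role class in each of the 6 libraries, divided by the class's median over the libraries, with the column total (left) and the TMM-scaled total (right). The alternative beta subunits and the 2 genes named after a subunit are not drawn. Every class drawn has another highest library on the right than on the left. The lowest library stays the same for alpha ring (HN74), chaperone (HN73) and activator (HN71) sums. On the right alpha ring sums span 1.02-fold, chaperone sums 1.13-fold and activator sums 1.2-fold, against 1.18-fold for the activators on the left.

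For the 49 covered genes the highest library exceeded the lowest by a median of 1.21-fold, with a range of 1.11 to 1.93, and the median coefficient of variation was 7.27%, against 3.53% that counting error alone gives. For all 7983 genes within the same range of mean CPM (6.07 to 287) the median was 1.33-fold and the coefficient of variation 10.6%, against 5.71% from counting error. A span under 1.2-fold was found for 44.9% of the proteasome genes and 16.5% of those 7983 genes. With TMM scaling the medians were 1.16-fold and 1.26-fold, and the shares 65.3% and 33.3%. These shares are descriptions without a test, and the proteasome genes had more reads than the typical gene of that range, as their lower counting error shows. After PSMD9, the widest spans in CPM were those of PSME4 ENSDARG00000087911 (1.64-fold, and 1.56-fold with TMM scaling) and PSMD14 (1.47-fold, and 1.27-fold with TMM scaling). With TMM scaling PSME1 (1.34-fold) and PSMD11 ENSDARG00000005134 (1.33-fold) had wider spans than PSMD14.

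**Figure D4:**
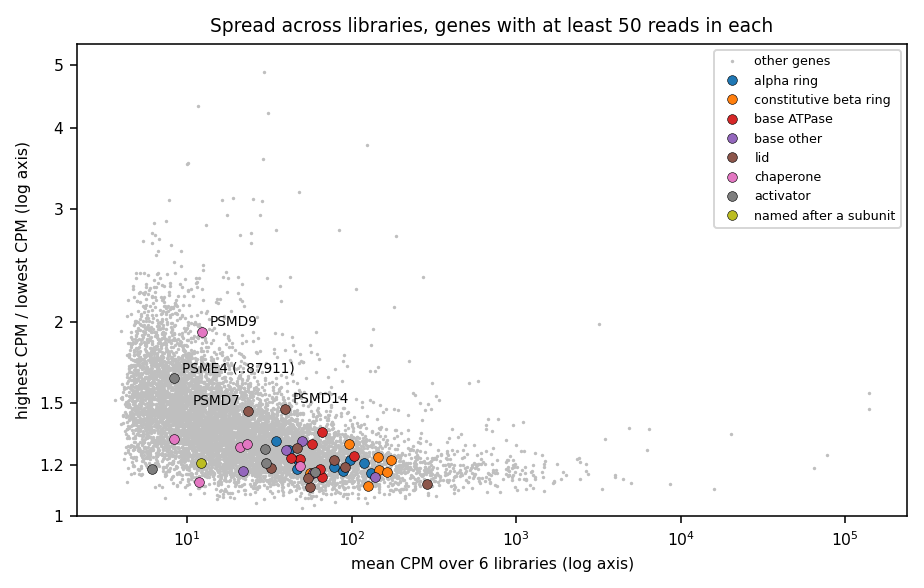
Highest over lowest CPM among the 6 libraries (y axis, logarithmic) against mean CPM (x axis, logarithmic) for the 9063 genes with at least 50 reads in every library. Proteasome genes (coloured by role) have a median span of 1.21-fold; PSMD9 (1.93-fold) and PSME4 ENSDARG00000087911 (1.64-fold) lie highest among them.

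Most matched genes of the wider pathway were well covered too. Of 51 further genes listed for the ubiquitin-proteasome system and MHC class I presentation, 42 were matched by name, to 44 identifiers. At least 50 reads in every library were found for 40 of these identifiers, against 27.9% of all genes in the table. The largest shares of reads belonged to uba1, the enzyme that activates ubiquitin, with 539 to 650.6 CPM, and VCP, the ATPase that extracts ubiquitinated proteins, with 480.3 to 543 CPM. POMP, which completes core assembly, had 53.6 to 65.3 CPM, and the cap subunits ADRM1 and SEM1, which lie outside the name rule, 58.2 to 64.8 and 64.2 to 76.8 CPM. For nfe2l1b, whose mammalian relative NFE2L1 drives proteasome genes when the proteasome is inhibited, the range was 59.7 to 71.1 CPM. DDI2 and NGLY1, which process NFE2L1 in mammals, had 30.4 to 36.3 and 42.8 to 52.7 CPM. The 4 without such coverage were tap2a at 0, irf1a, irf1b and nfe2l2b (10 to 33 reads).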

How the data were processed

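RNA of the cell line ZMEL1 was depleted of ribosomal RNA and sequenced, per the labels' protocols, although another label field names polyA RNA. The authors deposited 1 table of raw read counts per Ensembl gene. The submitters' processing notes name cutadapt, TopHat2 (2.1), HTSeq and the build GRCz11; strand, multi-mapping and annotation settings are not given in the sources used here. The table has no rows for unassigned reads. Symbols came from a table of Ensembl names, which named 29201 of 32520 identifiers (89.8%).

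CPM was computed per column with Python 3.11.15 and pandas 2.3.3, TMM factors with edgeR 4.0.16 and size factors with DESeq2 1.42.0. Genes counted as covered at 50 or more reads in every library. Limits for a count of 0 use 3 reads, and intervals are exact (Clopper-Pearson, 95%). The calculation of spread was run on simulated counts with the same gene profile in every library and extra spread in some genes. The simulation held no shift in composition between libraries, so it does not cover what TMM scaling corrects. No 2 libraries were duplicates: chi-square over degrees of freedom was 4.75 or more in all 15 pairs.

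Values per kilobase and the promoter search were planned but not made, since no coding lengths or promoters were used here, so plain CPM stands in. No treatment groups were compared. Genes, lists and roles were chosen with earlier results of these data known. Named by rule were the catalytic and alternative beta subunits, the 2 highest and 2 lowest genes per role by median CPM, duplicated genes, the 3 widest spans and genes under 10 reads; a few others were added after their values were seen.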

Additional observations from a re-analysis of the deposited data

Results flagged for a closer look

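PSMA6 ENSDARG00000013966 in HN70 stood apart from the other libraries, at 52.3 CPM against 44.1 to 47.1 CPM in the other 5. Its gap to the nearest library was 0.634 of the whole range, above Dixon's critical value of 0.625 for 6 samples. It was the only one of 49 genes to pass that value, and chance passes about 1 in 20. With TMM scaling HN70 no longer stood apart: it had 48.8 CPM, the next library 47.7 CPM, and the gap was 0.204 of the range.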

How the results depend on the processing

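The median ratio of core to cap, 1.72 as the median of the 6 libraries, was 1.09 with sums over subunits, 1.34 with means and 1.52 with duplicated genes summed, so its size depends on the summary. It was 1.77 for genes with at least 10 reads in every library, and leaving out each library in turn gave 1.70 to 1.74. None of these ratios includes ADRM1 and SEM1, the cap subunits outside the name rule. The share of PSMB10 was 0.0535% to 0.0777% with 1 library left out, and those of PSMB8 and PSMB9 were 0 throughout. The median span of the covered genes, 1.21-fold, was 1.16 with TMM scaling and 1.16 with DESeq2 size factors (1.159 and 1.157), 1.15 with totals lacking the top 1% of genes, 1.22 with a minimum of 10 reads (chosen after seeing the data) and 1.17 to 1.21 with 1 library left out. The 1.2-fold limit for the share of genes with a narrow span was chosen after seeing the data; at 1.5-fold the shares were 95.9% of the proteasome genes and 78.8% of the 7983 genes. All 98 medians of single genes under TMM and DESeq2 scaling moved by less than 1 SD of the libraries. Both scalings raise some libraries and lower others around the same centre, and the SD includes the shift they correct. The medians could thus hardly move, so this says little about how robust the levels are. At least 1 read in all was found for 52 genes, the same number as at least 10, and 50 genes passed 100 reads; 50 members had a symbol on 1 identifier only. Values per kilobase and promoter motifs were not run. No paired analysis was possible because the labels tie none of the count columns to a replicate. Depth limits statements on PSMB8, PSMB9 and PSMB10 to the shares given.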
